A study of Mus musculus with 12 samples.

Results

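The 10 genes described here encode the core of the transforming growth factor beta (TGF-beta) system outside the cell and at its surface. They are the ligand genes Tgfb1, Tgfb2 and Tgfb3, the receptor genes Tgfbr1, Tgfbr2 and Tgfbr3, and the latent TGF-beta binding protein genes Ltbp1, Ltbp2, Ltbp3 and Ltbp4. The set is given by these names, was chosen with earlier results of these data known, and all 10 were found among the 26732 gene names that occur in both count tables. Every one passed the filter on low counts in every fit, with 211 to 14159 reads per library.

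TGF-beta is made as an inactive dimer held by its own propeptide, and in most tissues the complex is stored in the matrix by a latent TGF-beta binding protein that docks on fibrillin and fibronectin fibres. Integrins, thrombospondin and proteases release the active dimer, which binds the type II receptor, often by way of the co-receptor betaglycan. The type II receptor then switches on the type I receptor, which phosphorylates SMAD2 and SMAD3. In the artery wall the pathway is known for its part in contractile gene expression, matrix deposition and aortic disease.

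RNA was measured in 12 libraries of primary vascular smooth muscle cells (VSMC) from mouse aorta, in 4 groups of 3. The groups are wild type (WT) cells at day 1, cells with a knockout of the nuclear receptor NR4A3 (KO) at day 1, WT cells at day 14 and KO cells at day 14. All 4 groups grew in DMEM/F12 with 10% fetal bovine serum, and the protocols give 10 mM beta-glycerophosphate (β-GP, a phosphate donor used to drive mineral deposition) for all of them. The treatment label, however, reads none for WT and β-GP for KO, so an effect of genotype and whatever that label stands for cannot be told apart. The labels give neither the age of the mice, nor how NR4A3 was deleted, nor whether the 3 replicates of a group came from separate animals or cultures, so the p-values reflect only how far these libraries differ within a group, possibly for technical reasons. The 2 days were counted in separate tables, so day and table cannot be told apart in a contrast between days.

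Several features of the libraries bear on every value below. Library totals ran from 13848199 to 30105118 reads. Nr4a3 itself was lower in KO at both days, at 2.08 ± 0.235 CPM (reads scaled to a common library total, mean ± SD, n = 3) against 4.25 ± 0.385 in WT at day 1, and 49.6 ± 13.6 against 237 ± 19.6 at day 14, log2 differences of -1.02 (adjusted p = 0.000855) and -2.27 (adjusted p = 2.60e-05). The deleted part of the gene is not stated, so these counts check the label only in part. KO cells at day 1 lay nearer to WT cells at day 14 than to the WT cells of their own day. The median correlation of log2 CPM over all genes was 0.974 between libraries of those 2 groups and 0.921 to 0.936 for the remaining pairs of groups. Yap1 and Birc2 set the libraries apart the same way, Yap1 at 3798 ± 241 CPM in KO at day 1 and 4498 ± 316 in WT at day 14, against 967 ± 37.7 in WT at day 1 and 622 ± 33.4 in KO at day 14. Labels were kept as given. An exchange of WT and KO libraries within a day would turn the sign of that day's KO effect, and whether libraries or columns were exchanged was not tested beyond Nr4a3, which was lower in the libraries labelled KO at both days. WT replicate 1 of day 14 stood apart from its group, with the 10 genes at 44.99% (Tgfb2) to 89.7% (Ltbp4) of the mean of the other 2 libraries, so the tests of the 10 genes at day 14 are given with and without it.

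Smooth muscle identity was only partly borne out by the markers. Of 8 smooth muscle markers, Acta2 reached 255 to 1832 CPM and Des 460.1 to 1011 CPM, while Tagln, Myh11 and Cnn1 had 2 to 96 reads in a whole group of 3 libraries, and Myocd had 0 in WT at day 1. Smtn was at 51.8 to 131 CPM and Lmod1 at 0.495 to 13.9 CPM. At day 1 these markers went both ways. Acta2 (276 ± 19.3 CPM in WT and 667 ± 33.9 in KO) and Lmod1 (0.627 ± 0.116 and 9.62 ± 2.71) were higher in KO. Smtn was lower (126 ± 6.10 and 67.2 ± 3.43), and Des was similar (649 ± 13.4 and 631 ± 57.3). The summed level of 10 adventitial fibroblast markers, led by Ly6a, was 578 to 588 CPM in WT and 246 to 368 in KO at day 1. At day 14 it was 509.5 to 699 in WT and 692 to 773 in KO, but single markers went both ways. There Ly6a (527 ± 86.7 CPM in WT and 624 ± 36.7 in KO) and Pdgfra (33.3 ± 6.33 and 75.8 ± 2.71) had higher means in KO. At lower levels, means were also higher in KO for Cd248 (0.667 ± 0.0964 and 7.25 ± 1.04), Serping1 (0.638 ± 0.253 and 2.04 ± 0.810) and Col14a1 (0.535 ± 0.228 and 2.20 ± 0.335). Cd34 (39.3 ± 4.38 and 7.53 ± 0.708) and Dcn (23.3 ± 5.18 and 8.48 ± 1.11) had lower ones. Dpt was at 0 in KO at day 1 and Lum in KO at day 14. Mesothelial markers, of which 7 were listed and Msln led, summed to 402 to 409 CPM in WT and 359 to 367 in KO at day 1, and to 279 to 418 in WT but 78.7 to 82.5 in KO at day 14. The sum of 6 adipocyte markers, led by Lpl, was 97.3 to 112 CPM in WT and 323 to 406 in KO at day 1, and 330.3 to 565 in WT and 979 to 1155 in KO at day 14. At day 14 Lpl alone was at 456 ± 121 CPM in WT and 1078 ± 93.9 in KO, while Fabp4 was lower in KO (16.8 ± 4.84 and 8.08 ± 1.19). Adipoq was at 0 in WT at both days and Cfd in every group other than KO at day 1. Endothelial markers (6 of 8 in the tables) summed to 5.07 to 16.2 CPM, macrophage markers (7 of 8) to 50.3 to 95.8 CPM, and Schwann cell markers (5) to 2.32 to 17.4 CPM over the groups. Cd14 led the macrophage sum in WT at day 1 and Cd68 in the remaining groups. At day 1 Cd68 was higher in KO (21.9 ± 3.17 CPM in WT and 48.6 ± 6.68 in KO) and Cd14 lower (41.0 ± 1.99 and 16.6 ± 0.844). Ptprc and C1qa were at 0 in WT at day 1, Adgre1 in WT at day 14 and C1qa in KO at day 14. What part differences in cell makeup have in the results below was not tested. In bulk RNA, fewer cells of a type and less RNA per cell cannot be told apart.

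At day 1, 2 of the 10 genes were higher in KO and 4 were lower (edgeR quasi-likelihood test, called at an adjusted p below 0.05). Of all 15368 genes tested at that day, 60.8% were called, 30.6% higher and 30.2% lower; with library size alone as the scaling, 61.7% of the calls were higher in place of 50.4%. At day 14, 4 of the 10 were higher and 1 was lower, where 46.4% of 14905 genes were called, 22.7% higher and 23.7% lower. The median size of the KO effect over the 10 genes was 0.41 on the log2 scale at day 1 and 0.34 at day 14, and over all genes tested 0.43 and 0.42. As a group, then, the 10 genes were called about as often as any gene. What varied was which of them moved: Tgfb2 and Ltbp4 rose and Tgfb3, Tgfbr2, Tgfbr3 and Ltbp1 fell at day 1, while Tgfb1, Tgfbr1, Tgfbr3 and Ltbp2 rose and Tgfb2 fell at day 14.

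**Figure D1:**
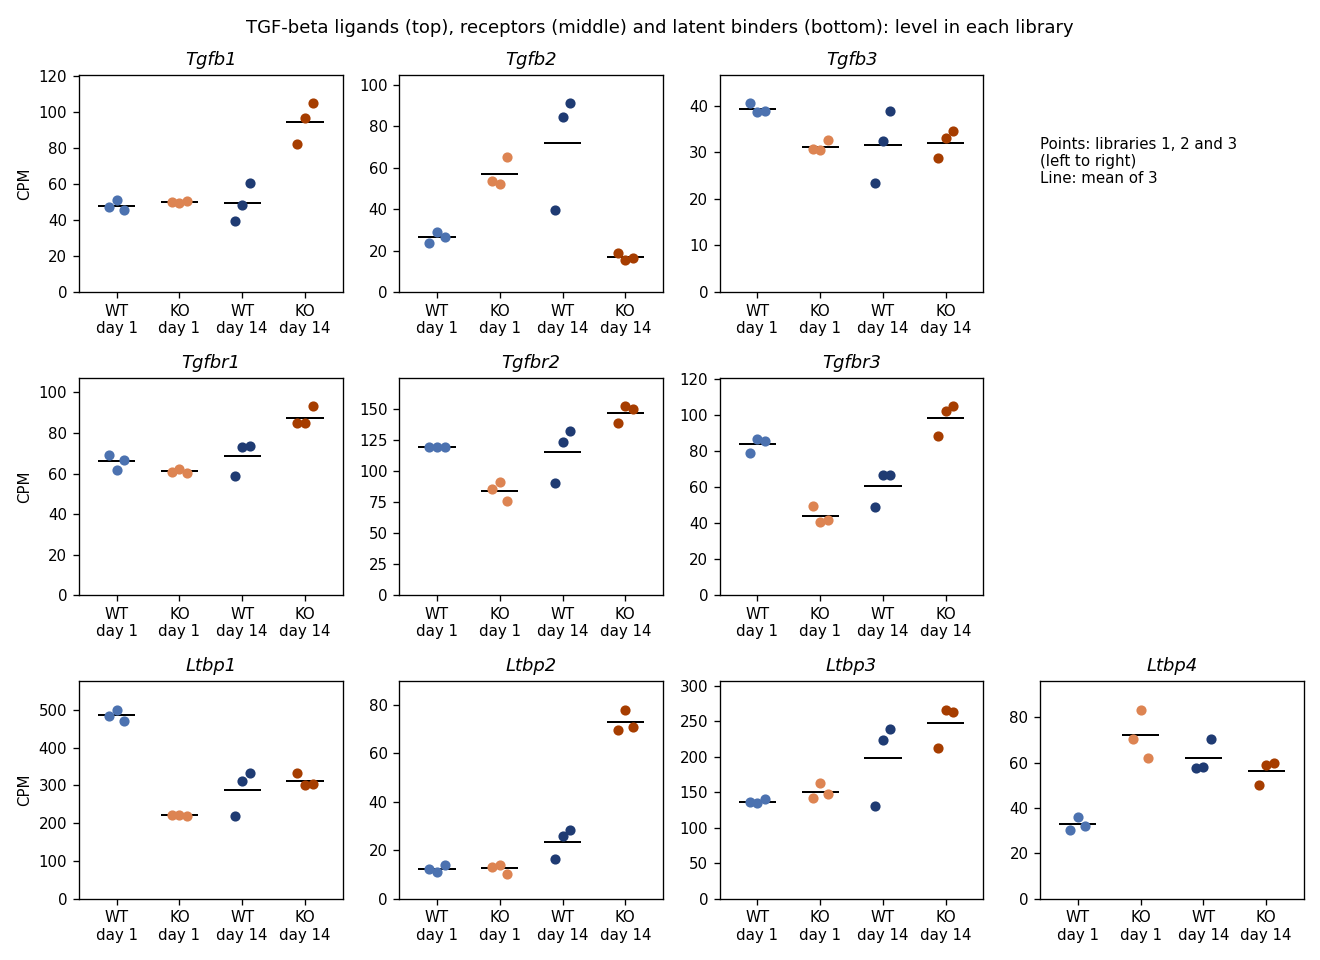
Level of each of the 10 genes in CPM (vertical axis) in each of the 12 libraries, by group (horizontal axis), with a line at the mean of the group's 3 libraries. Tgfb2 has its lowest values in KO at day 14 (15.4 to 18.9 CPM), Ltbp2 its highest there (69.7 to 78.1 CPM), and Ltbp1 its highest in WT at day 1 (471 to 501 CPM).

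Among the ligands, Tgfb2, on chromosome 1, moved furthest and in opposite directions at the 2 days. In WT cells at day 1 it was at 23.7, 29.1 and 26.6 CPM in replicates 1, 2 and 3, and in KO cells at 53.6, 52.2 and 65.3 CPM. Each KO library was above each WT library, by a fold of 2.17, and the log2 difference was 1.12 ± 0.10 (adjusted p = 7.97e-07). At day 14 the WT libraries held 39.5, 84.6 and 91.1 CPM and the KO libraries 18.9, 15.4 and 16.3 CPM. Here each KO library was below each WT library, 4.28-fold on the fitted scale, with a log2 difference of -2.10 ± 0.28 (adjusted p = 0.000406). WT replicate 1 was the lowest of its group, and without it the difference was -2.41 (adjusted p = 1.58e-12). The KO effect at day 14 minus that at day 1 was -3.19 ± 0.32 (adjusted p = 6.33e-07), the largest change of effect among the 10 genes, and -3.51 without that library. A transcript annotated antisense to Tgfb2 (Gm29491) shares exon sequence with it, and the use of strand in the counting is not given, so the reads of the pair cannot be told apart.

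Tgfb1, on chromosome 7, encodes the form of the ligand most often studied in the artery wall. At day 1 its WT libraries were at 47.2, 50.9 and 45.6 CPM and its KO libraries at 49.7, 49.3 and 50.7 CPM. The groups overlapped, and the log2 difference was 0.07 ± 0.07 (adjusted p = 0.421). With library size alone as the scaling, which moves the median of all genes at day 1 by 0.12, the difference was 0.19 (adjusted p = 0.0279). At day 14 the WT libraries held 39.7, 48.2 and 60.7 CPM and the KO libraries 82.4, 96.3 and 105 CPM. All 3 KO libraries lay above all 3 WT libraries, by 1.89-fold and a log2 difference of 0.92 ± 0.16 (adjusted p = 0.00156), or 0.76 (adjusted p = 1.08e-05) without WT replicate 1.

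Tgfb3, on chromosome 12, had the smallest spread of group means among the 10 genes (highest over lowest, 1.26) and was lower in KO at day 1. Its level was 40.5, 38.7 and 38.8 CPM in WT and 30.6, 30.4 and 32.5 CPM in KO at day 1, and 23.4, 32.4 and 38.8 CPM in WT and 28.7, 33.0 and 34.5 CPM in KO at day 14. The day 1 groups did not overlap, and the log2 difference was -0.33 ± 0.07 (adjusted p = 0.00189), with the call lost in the fit of all 12 libraries (-0.33, adjusted p = 0.0562). The day 14 groups overlapped, with a log2 difference of 0.01 ± 0.18 (adjusted p = 0.963), or -0.19 (adjusted p = 0.142) without WT replicate 1, a change of sign within values that miss the threshold. Transcripts on the opposite strand (Gm37804, Gm48008) overlap its exons.

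The promoters of Tgfb2 and Tgfb1, which went different ways at day 14, are shown as the stretch of 250 bases before the annotated start (RefSeq, GRCm38.p6, a build other than the mm9 named for the counts). Whether these sequences have a part in the levels was not tested. The Tgfb2 stretch is chr1:186705990-186706239 on the minus strand with 53.6% G and C, and the Tgfb1 stretch is chr7:25686752-25687001 on the plus strand with 75.2%. Capitals mark the letters CAGACA, the core of the SMAD-binding CAGA box.
Tgfb2: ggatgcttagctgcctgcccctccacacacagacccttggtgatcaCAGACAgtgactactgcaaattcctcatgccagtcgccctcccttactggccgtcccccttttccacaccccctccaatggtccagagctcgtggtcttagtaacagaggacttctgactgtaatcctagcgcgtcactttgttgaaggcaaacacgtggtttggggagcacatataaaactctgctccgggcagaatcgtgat
Tgfb1: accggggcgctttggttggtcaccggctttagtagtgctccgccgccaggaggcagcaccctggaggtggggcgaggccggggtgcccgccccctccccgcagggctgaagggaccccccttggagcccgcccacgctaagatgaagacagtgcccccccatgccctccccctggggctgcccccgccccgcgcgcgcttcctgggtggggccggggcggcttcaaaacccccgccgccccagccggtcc

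The RefSeq table holds 12 promoters (250 bases before to 50 after the start) of 8 of the 10 genes; Tgfb3 and Tgfbr3 are the others. Searched on both strands, CAGACA was found in 4 of the 12, those of Tgfb2, Tgfbr1, Ltbp1 and Ltbp3, and in 21.0% of all 32851 promoters in the table. The element bound by NR4A receptors as monomers, AAAGGTCA, was found in 0 of the 12 and in 1.51% of all promoters. The AP-1 motif TGANTCA was found in 1 of the 12, that of Ltbp3, and in 7.81% of all. In Ltbp3 it shares bases with a CAGACA, shown together in capitals in the 30 bases at chr19:5740885-5740914 on the plus strand, around the start.
Ltbp3: aagttctttTGAGTCAGACActggatcctg
A match is a run of letters only, and these windows leave out any element further away.

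Of the receptors, Tgfbr3 and Tgfbr2 were lower in KO at day 1, and Tgfbr3 and Tgfbr1 were higher at day 14. Tgfbr3, on chromosome 5, encodes betaglycan, a co-receptor that hands ligand, above all TGF-beta 2, to the type II receptor. At day 1 it was at 79.0, 86.9 and 85.7 CPM in WT and 49.7, 40.7 and 42.1 CPM in KO. The KO libraries were all below the WT libraries, with a log2 difference of -0.92 ± 0.08 (adjusted p = 5.99e-07). At day 14 the order was reversed, with 49.0, 66.7 and 67.1 CPM in WT and 88.6, 103 and 105 CPM in KO and again no overlap. The log2 difference was 0.68 ± 0.14 (adjusted p = 0.00326), or 0.53 (adjusted p = 3.47e-05) without WT replicate 1, and the change of effect between the days was 1.62 ± 0.17 (adjusted p = 8.34e-07). An unassigned transcript on the same strand (Gm43422) overlaps its exons.

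Tgfbr2, on chromosome 9, encodes the type II receptor, which binds the ligand. It was at 119.5, 119.4 and 119.4 CPM in WT and 85.8, 90.8 and 76.0 CPM in KO at day 1. Every KO library was lower, with a log2 difference of -0.50 ± 0.07 (adjusted p = 3.29e-05). At day 14 it was at 90.1, 123 and 133 CPM in WT and 139, 152 and 149.5 CPM in KO. The groups did not overlap there either, but the difference of 0.34 ± 0.14 (adjusted p = 0.0754) missed the threshold. It was 0.17 (adjusted p = 0.0541) without WT replicate 1, and passed without WT replicate 3 (0.45, adjusted p = 0.0362), with no filter (0.34, adjusted p = 0.0130), with the replicate number as a block (0.35, adjusted p = 0.0348) and in the fit of all 12 libraries (0.35, adjusted p = 0.0188). The change of effect was 0.85 ± 0.16 (adjusted p = 0.000333).

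Tgfbr1, on chromosome 4, encodes the type I receptor, the kinase that acts on SMAD2 and SMAD3. At day 1 the WT libraries were at 69.2, 61.8 and 66.9 CPM and the KO libraries at 60.8, 62.0 and 60.4 CPM, which overlap, with a log2 difference of -0.10 ± 0.07 (adjusted p = 0.192). At day 14 they were at 58.6, 73.1 and 73.5 CPM and 84.8, 84.8 and 93.1 CPM without overlap, a difference of 0.34 ± 0.11 (adjusted p = 0.0308). The call was lost without KO replicate 1, 2 or 3 (adjusted p = 0.0646, 0.0773 and 0.140) or with library size alone as the scaling (0.28, adjusted p = 0.0674), and kept without WT replicate 1 (0.23, adjusted p = 0.0165). Its change of effect, 0.47 ± 0.13 (adjusted p = 0.00565), fell below the threshold with library size alone as the scaling (0.26, adjusted p = 0.103).

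The latent binders split into one gene that fell in KO at day 1, one that rose at day 1, one that rose at day 14 and one with no call at either day. Ltbp1, on chromosome 17, binds all forms of latent TGF-beta and had the highest mean level of the 10 genes per kb of exon in every group. In KO at day 14 that lead was within the spread, at 29.2 ± 1.60 CPM per kb against 27.3 ± 3.36 for Ltbp3. At day 1 it was at 485, 501 and 471 CPM in WT and 222, 221 and 219.7 CPM in KO. All 3 KO libraries were below the WT libraries, 2.19-fold, with a log2 difference of -1.13 ± 0.05 (adjusted p = 1.30e-09). At day 14 the groups overlapped, at 219.6, 312 and 334 CPM in WT and 332, 301 and 303 CPM in KO. The difference there was 0.10 ± 0.15 (adjusted p = 0.605), and -0.08 (adjusted p = 0.322) without WT replicate 1, again on either side of 0 and short of the threshold. The change of effect was 1.25 ± 0.16 (adjusted p = 8.94e-06).

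Ltbp4, on chromosome 7, whose product takes part in elastic fibre assembly, went the other way at day 1. It was at 30.4, 35.8 and 31.9 CPM in WT and 70.6, 83.5 and 62.0 CPM in KO. Every KO library lay above every WT library, with a log2 difference of 1.14 ± 0.10 (adjusted p = 7.54e-07). At day 14 WT was at 57.6, 57.9 and 70.5 CPM and KO at 50.3, 59.1 and 60.0 CPM, and the groups overlapped, with a difference of -0.15 ± 0.12 (adjusted p = 0.331), or -0.22 (adjusted p = 0.0603) without WT replicate 1. The change of effect was -1.27 ± 0.17 (adjusted p = 1.17e-05).

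Ltbp2, on chromosome 12, is the family member that does not bind latent TGF-beta and is found in elastic fibres. At day 1 it was low, at 12.2, 11.004 and 13.96 CPM in WT and 13.2, 13.9 and 10.3 CPM in KO, with overlapping groups and a difference of 0.01 ± 0.14 (adjusted p = 0.941). At day 14 it was at 16.4, 25.96 and 28.3 CPM in WT and 69.7, 78.1 and 71.0 CPM in KO. The lowest KO library was above the highest WT library, with a fold of 3.07 and a log2 difference of 1.62 ± 0.19 (adjusted p = 0.000162). Without WT replicate 1 the difference was 1.39 (adjusted p = 9.05e-10), and the change of effect was 1.63 ± 0.24 (adjusted p = 3.85e-05). A transcript annotated antisense to it (D030025P21Rik) overlaps its exons.

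Ltbp3, on chromosome 19, another binder of latent TGF-beta, was at 136, 134 and 139.8 CPM in WT and 142, 162 and 147 CPM in KO at day 1. The groups did not overlap, but the difference of 0.15 ± 0.06 (adjusted p = 0.0507) missed the threshold, and passed it without KO replicate 1 (adjusted p = 0.0389), without KO replicate 3 (adjusted p = 0.0224) or with library size alone (0.27, adjusted p = 0.00238). At day 14 WT was at 130.2, 224 and 239 CPM and KO at 212, 266 and 263.5 CPM. The groups overlapped, and the difference was 0.31 ± 0.21 (adjusted p = 0.248), or 0.07 (adjusted p = 0.540) without WT replicate 1.

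The KO effect differed between the days for 8 of the 10 genes, by the test of the difference itself in the fit of all 12 libraries. Among the 15976 genes of that fit 60.1% were called, so that share too is read against a high background. For 6 genes the effect was higher at day 14 than at day 1 (29.5% of all genes) and for 2, Tgfb2 and Ltbp4, it was lower (30.6%). With library size alone, 37.9% of all calls were of a higher effect in place of 49.1%. The median size of this change was 1.06 over the 10 genes and 0.77 over all genes. All 8 were also called without WT replicate 1 of day 14. Tgfb3 (0.36 ± 0.20, adjusted p = 0.132) and Ltbp3 (0.19 ± 0.23, adjusted p = 0.507) missed the threshold, and Tgfb3 passed it without WT replicate 3 of day 14 (0.51, adjusted p = 0.0185). The signs at the 2 days were opposite, with a call at both, for Tgfb2 and Tgfbr3 alone. How many of all genes did the same was not counted, so this is not read as particular to these genes.

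**Figure D2:**
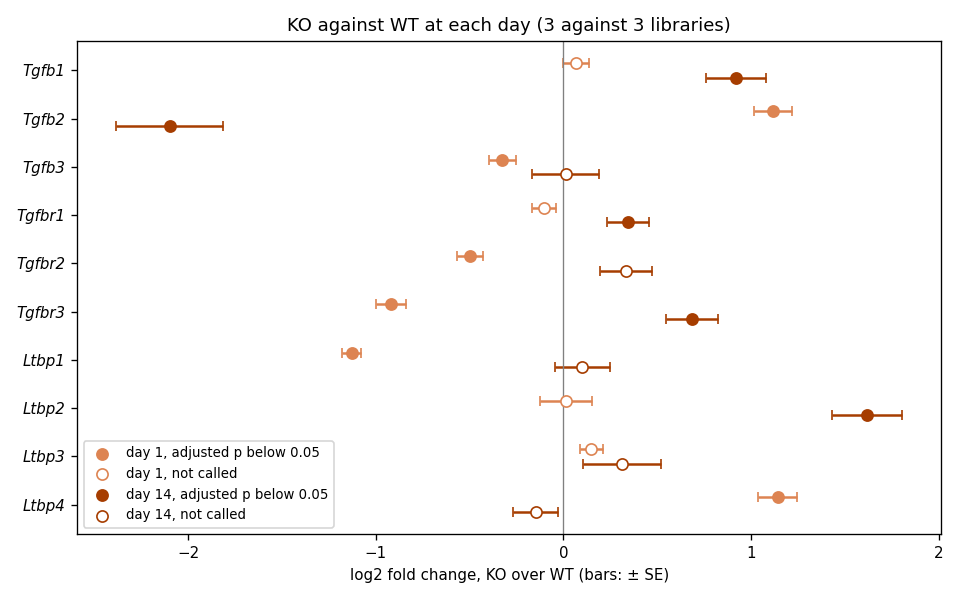
KO effect on each of the 10 genes as log2 fold change over WT (horizontal axis) at day 1 and at day 14, with bars of 1 standard error from the fit of that day's 6 libraries. Tgfb2 lies at 1.12 at day 1 and -2.10 at day 14, and Tgfbr3 at -0.92 and 0.68.

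Between day 1 and day 14 of WT cells, 4 of the 10 genes rose and 2 fell, against 51.9% of all genes called (25.8% higher, 26.1% lower, and 62.7% of the calls higher with library size alone in place of 49.7%). The risers were Tgfb2 (1.44 ± 0.22, adjusted p = 7.67e-05), Ltbp2 (0.92 ± 0.17, adjusted p = 0.000412), Ltbp4 (0.92 ± 0.12, adjusted p = 1.47e-05) and Ltbp3 (0.53 ± 0.16, adjusted p = 0.0136). The genes that fell were Ltbp1 (-0.75 ± 0.11, adjusted p = 6.48e-05) and Tgfbr3 (-0.46 ± 0.12, adjusted p = 0.00421). Of these, Ltbp3 lost its call without WT replicate 2 or 3 of day 14 (adjusted p = 0.0533 and 0.0635), while the 6 calls stood without WT replicate 1 and Tgfb3 gained one without WT replicate 3 (-0.49, adjusted p = 0.00590).

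In KO cells 7 rose from day 1 to day 14 and 2 fell, against 54.8% of all genes called (26.9% higher, 27.9% lower). Ltbp2 rose most (2.55 ± 0.18, adjusted p = 1.48e-08), followed by Tgfbr3 (1.16 ± 0.12, adjusted p = 1.09e-06), Tgfb1 (0.92 ± 0.13, adjusted p = 2.18e-05) and Tgfbr2 (0.80 ± 0.12, adjusted p = 3.09e-05). Ltbp3 (0.72), Tgfbr1 (0.52) and Ltbp1 (0.50) made up the rest of the risers. All 3 receptor genes therefore rose with time in KO cells, while in WT cells Tgfbr1 and Tgfbr2 were at 0.05 ± 0.09 (adjusted p = 0.665) and -0.05 ± 0.11 (adjusted p = 0.736). Tgfb2 fell (-1.76 ± 0.23, adjusted p = 1.46e-05), and so did Ltbp4 (-0.35 ± 0.12, adjusted p = 0.0215), whose call was lost without KO replicate 2 of day 1 (-0.24, adjusted p = 0.101) or KO replicate 1 of day 14 (-0.28, adjusted p = 0.0907). The comparisons above share groups with each other, so they are not independent looks at the same genes.

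KO at day 1 and WT at day 14, the groups nearest to each other over all genes, were also nearest over the 10 genes, with a mean absolute log2 difference of 0.31 against 0.54 to 0.93 for the other pairs. Between them 4 of the 10 genes were called, all higher in WT at day 14, against 9.78% of all genes (5.89% higher, 3.89% lower). These were Ltbp2 (0.92 ± 0.18, adjusted p = 0.00577), Tgfbr3 (0.46 ± 0.12, adjusted p = 0.0270), Tgfbr2 (0.45 ± 0.12, adjusted p = 0.0242) and Ltbp1 (0.39 ± 0.11, adjusted p = 0.0470). Only for Ltbp2 did the groups not overlap; for the other 3 the lowest WT library, replicate 1, was below the highest KO library. The count rested on single libraries: it was 1 without KO replicate 3 of day 1 or WT replicate 2 or 3 of day 14, and 7 without WT replicate 1 of day 14. Over all genes the number called, 1562, ran from 577 to 5538 as each library was left out. Ltbp2 alone kept its call whichever library was left out. Ltbp1 kept it only without WT replicate 1 of day 14. Tgfbr2 also lost its call without KO replicate 1 of day 1 (adjusted p = 0.0706) and Tgfbr3 without KO replicate 2 of day 1 (adjusted p = 0.0765). Tgfb2 was at 0.33 ± 0.22 (adjusted p = 0.354) between these groups, and at 0.62 (adjusted p = 0.000149) without that library.

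KO at day 14 and WT at day 1, which differ in genotype and time at once, differed in 8 of the 10 genes, against 50.7% of all genes called (24.6% higher, 26.1% lower). In KO at day 14, Ltbp2 (2.56 ± 0.17, adjusted p = 1.86e-08), Tgfb1 (0.98 ± 0.13, adjusted p = 1.54e-05), Ltbp3 (0.86), Ltbp4 (0.78), Tgfbr1 (0.41) and Tgfbr2 (0.30 ± 0.11, adjusted p = 0.0406) were higher. Ltbp1 (-0.64 ± 0.11, adjusted p = 0.000292) and Tgfb2 (-0.65 ± 0.23, adjusted p = 0.0305) were lower. The calls of Tgfbr2 and Tgfb2 were lost without any of several single libraries of either group: for Tgfbr2 without WT replicate 1, 2 or 3 or KO replicate 2 or 3 (adjusted p from 0.0927 to 0.101), and for Tgfb2 without WT replicate 2 or 3 or KO replicate 2 or 3 (adjusted p from 0.0642 to 0.101). In the shared fit, leaving out WT libraries of day 14 brought Tgfb3 (adjusted p = 0.00845 without replicate 1 and 0.0452 without replicate 3) and Tgfbr3 (adjusted p = 0.0126 without replicate 1) past the threshold.

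Ordered by mean level over the 4 groups, KO at day 14 was highest for Tgfb1, all 3 receptor genes, Ltbp2 and Ltbp3. WT at day 1 was highest for Tgfb3 and Ltbp1, WT at day 14 for Tgfb2 and KO at day 1 for Ltbp4. The highest group mean was 5.88 times the lowest for Ltbp2, 4.25 times for Tgfb2 and 1.26 times for Tgfb3. Of the 30 pairs of neighbours in these orders, 13 differed at an adjusted p below 0.05. The share of all genes called was 9.78% in WT at day 14 against KO at day 1. In the other comparisons behind these pairs it ran from 46.4% to 60.8%. All genes were not ordered in this way, so the 13 pairs have no matched background. Below the top for Tgfb1, KO at day 1 (49.9 ± 0.700 CPM), WT at day 14 (49.5 ± 10.6 CPM) and WT at day 1 (47.9 ± 2.71 CPM) did not differ beyond their spread. At the top of the order the same held for Tgfb2, WT at day 14 (71.7 ± 28.1 CPM) over KO at day 1 (57.0 ± 7.20 CPM), for Ltbp3, KO at day 14 (247 ± 30.5 CPM) over WT at day 14 (198 ± 58.8 CPM), and for Ltbp4, KO at day 1 (72.02 ± 10.8 CPM) over WT at day 14 (62.0 ± 7.35 CPM). No neighbours passed the test for Tgfb3 or Ltbp3, though WT at day 1 did not overlap KO at day 14 for Tgfb3, nor KO at day 1 WT at day 1 for Ltbp3. The other neighbours that missed the threshold were KO at day 14 over WT at day 1 for Tgfbr3 (without overlap), WT at day 14 and WT at day 1 for Tgfbr1 and Tgfbr2, WT and KO at day 1 for Tgfbr1 and Ltbp2, and WT and KO at day 14 for Ltbp1 and Ltbp4.

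To compare genes with each other, levels were divided by the length of the merged exons (CPM per kb). On that scale Ltbp1 led in WT at day 1, at 45.4 CPM per kb, and Ltbp2 was lowest, at 1.52. The order of genes depends on these lengths, which merge the exons of all annotated transcripts, and other lengths were not tried. In CPM, Tgfb1 (47.9 ± 2.71, 5042 bases) was above Tgfb3 (39.3 ± 1.03, 3383 bases) in WT at day 1, while per kb Tgfb3 was above Tgfb1. Within the ligands the shares of the summed level per kb shifted. In WT at day 1 Tgfb3 made up 45.3% ± 2.05 (SD, n = 3), Tgfb1 37.0% ± 0.994 and Tgfb2 17.8% ± 1.48. The 3 ligands were close to even in KO at day 1, with Tgfb2 at 33.9% ± 2.21, and in WT at day 14 Tgfb2 had the highest mean share, at 38.3% ± 6.05. It led in replicates 2 and 3 (43.3% and 40.1%), while in replicate 1 Tgfb1 led at 36.4% and Tgfb2 was at 31.6%. In KO at day 14 Tgfb1 made up 60.1% ± 1.73 and Tgfb2 9.46% ± 1.85, while Tgfb3 was at 30.4% ± 0.427. The ratio of Tgfb2 to Tgfb1 reads, which needs no scaling between libraries, was 0.552 ± 0.0436 in WT and 1.14 ± 0.128 in KO at day 1. At day 14 it was 1.42 ± 0.387 in WT and 0.182 ± 0.0411 in KO. Without WT replicate 1 the WT ratio at day 14 was 1.63.

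The summed level of the ligands moved less than their shares. It was 25.7 ± 0.758 CPM per kb in WT and 29.0 ± 1.72 in KO at day 1. By day 14 it was 31.5 ± 9.03 in WT and 31.1 ± 2.87 in KO. The receptors summed to 37.5 ± 0.372 in WT and 26.4 ± 1.27 in KO at day 1. By day 14 the sum was 33.9 ± 5.59 in WT and 46.4 ± 2.64 in KO. Without WT replicate 1 the sums of WT at day 14 were 36.5 and 37.1 for ligands and receptors. The mean receptor shares there went from 31.1% to 30.3% (Tgfbr1), 41.5% to 42.1% (Tgfbr2) and 27.5% to 27.6% (Tgfbr3). Those of the binders went from 44.2% to 43.8% (Ltbp1), 4.66% to 4.81% (Ltbp2), 35.1% to 37.0% (Ltbp3) and 16.1% to 14.4% (Ltbp4). The share of Ltbp4 was 19.4% in replicate 1 against 13.6% and 15.2% in replicates 2 and 3. Tgfbr2 kept the largest share of the receptors in every group mean, from 38.7% ± 0.910 in KO to 41.5% ± 1.44 in WT at day 14. Among the binders the share of Ltbp1 was 67.7% ± 0.934 in WT at day 1 and 41.5% ± 2.28, 44.2% ± 0.714 and 39.5% ± 3.82 in KO at day 1, WT at day 14 and KO at day 14. Ltbp4 took 22.2% ± 2.07 in KO at day 1, and Ltbp2 12.03% ± 0.513 in KO at day 14 against 2.26% ± 0.310 in WT at day 1.

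**Figure D3:**
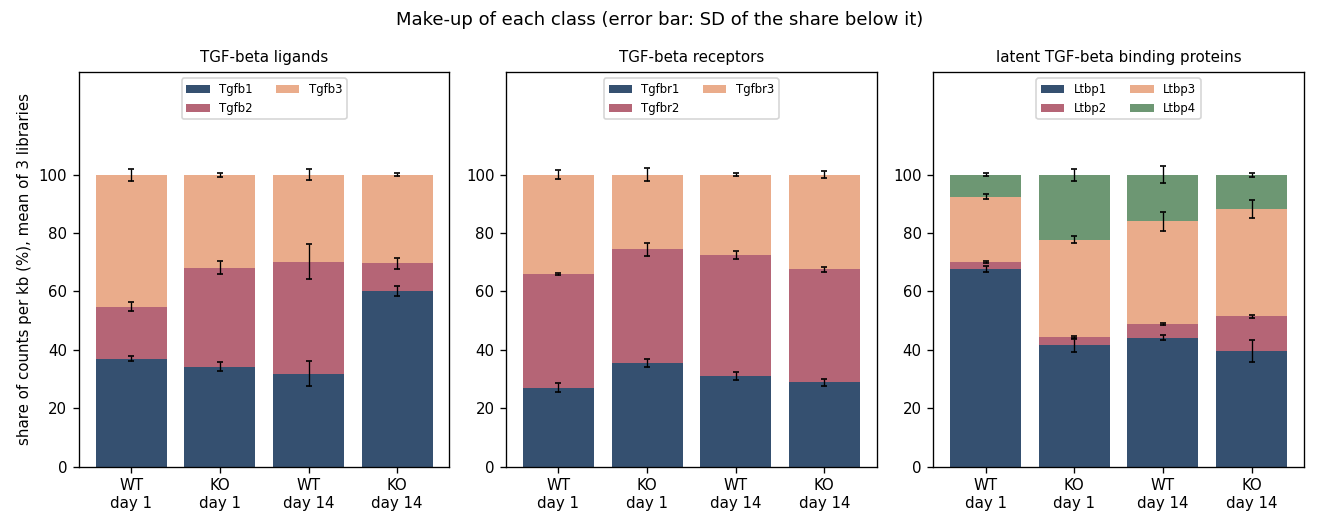
Share of each gene in the summed level of its class (vertical axis, percent, reads per kb of exon, mean of 3 libraries, error bars of 1 SD of the share below them) for ligands, receptors and latent binders in the 4 groups (horizontal axis). Tgfb1 makes up 60.1% of the ligands in KO at day 14 and Tgfb2 9.46%.

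Other genes of the pathway were followed through lists by role, some of which share members (Thbs1, for one, is also listed as a response gene). Of 19 tested genes that activate or anchor latent TGF-beta, 3 were higher and 13 lower in KO at day 1 (median log2 difference -0.47, over all genes 0.01), and 11 were higher and 3 lower at day 14 (median 0.69, over all genes 0.00). Calls made up 84.2% of the list at day 1 and 73.7% at day 14, against 60.8% and 46.4% of all genes. Thbs1, thrombospondin 1, was at 315 ± 6.33 CPM in KO against 1684 ± 22.3 in WT at day 1 (-2.41 ± 0.05, adjusted p = 2.22e-12), and at 1069.8 ± 34.5 against 445 ± 151 at day 14 (1.25 ± 0.23, adjusted p = 0.00195). Itgb3, the beta subunit of an integrin that binds latent TGF-beta, fell by 2.85 on the log2 scale at day 1 (adjusted p = 3.31e-10) and was higher by 2.21 at day 14 (adjusted p = 1.19e-05). Emilin1, a matrix protein that holds back ligand maturation, went from -1.01 ± 0.08 (adjusted p = 2.20e-07) at day 1 to 2.59 ± 0.23 (adjusted p = 3.59e-05) at day 14. Fbn1, the fibrillin on which the binders dock, and Itgb8, another activating integrin subunit, were picked out after their values were seen. Fbn1 was at 609.6 ± 14.7 and 190.2 ± 19.4 CPM in WT and KO at day 1, and at day 14 it was at 175 ± 26.8 and 662 ± 47.5 CPM. Itgb8 was at 36.4 ± 0.654 and 7.69 ± 2.04 CPM at day 1, and then at 8.82 ± 2.81 and 41.8 ± 2.59 CPM.

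Proteases of the same list were called in both directions. Mmp9, a gelatinase, was near 0 in WT at day 14 (0.182 ± 0.174 CPM) and at 23.1 ± 4.61 CPM in KO (6.79 ± 0.41, adjusted p = 5.12e-06), a fitted difference that rests on few WT reads. Plau, the urokinase activator of plasmin, fell in KO at day 14 (-0.85 ± 0.11, adjusted p = 0.000312). Plat, the tissue plasminogen activator, rose a little at day 1 (0.29 ± 0.08, adjusted p = 0.00624), a call lost in the fit of all 12 libraries (0.29, adjusted p = 0.216). Nrros and Fbn2 of this list were not tested. Without WT replicate 1, 16 of the 19 genes were called at day 14 in place of 14. The number called over all genes at day 14, 6918, itself ran from 5182 to 9209 as each library was left out.

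Co-receptors and extracellular binders were called in both directions. Of 10 tested, 4 were higher and 4 lower at day 1 (median -0.21), and 3 higher and 3 lower at day 14 (median 0.07). Over all genes the medians were 0.01 and 0.00. Calls were 80% of the list at day 1 and 60% at day 14, against 60.8% and 46.4% of all genes. Bgn, the proteoglycan biglycan, fell at day 1 (-1.84 ± 0.09, adjusted p = 2.84e-09), and Nbl1, an antagonist of BMP ligands, rose (0.55 ± 0.08, adjusted p = 8.77e-05). Vasn, a membrane protein that binds TGF-beta, fell at day 1 (-1.16 ± 0.06, adjusted p = 7.23e-09) and rose at day 14 (1.05 ± 0.14, adjusted p = 0.000333). Acvrl1, the type I receptor ALK1, rose at both days (1.95 ± 0.18, adjusted p = 8.71e-07 and 1.41 ± 0.19, adjusted p = 0.000365). The proteoglycan Dcn, also on the list of fibroblast markers, fell at both (-0.72 ± 0.16, adjusted p = 0.00176 and -1.47 ± 0.20, adjusted p = 0.000377), and Cd109, a co-receptor known to dampen signalling, fell at day 14 (-0.79 ± 0.15, adjusted p = 0.00206). Lrg1 was not tested.

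Inside the cell, 7 of 20 genes of the SMAD2/3 branch and its regulators were higher and 7 lower at day 1 (median 0.02), and 4 were higher and 5 lower at day 14 (median -0.10). That is 70% and 45% of the list, near the 60.8% and 46.4% called among all genes. Pmepa1, an inhibitor that the pathway itself induces, rose at day 1 (1.16 ± 0.11, adjusted p = 1.29e-06), as did Smurf1, a ubiquitin ligase that acts on receptors and SMADs (0.95 ± 0.06, adjusted p = 5.08e-08). Smurf1 was lower at day 14 (-0.59 ± 0.08, adjusted p = 0.000533). Ldlrad4, which competes for SMAD2 and SMAD3, fell at day 1 (-1.87 ± 0.15, adjusted p = 2.00e-07) and rose at day 14 (1.10 ± 0.14, adjusted p = 0.000344). Zfyve9, the SMAD anchor SARA, went the same way (-0.40 ± 0.09, adjusted p = 0.00130 and 0.63 ± 0.15, adjusted p = 0.00661). The corepressor Tgif1 (-0.56 ± 0.06, adjusted p = 2.32e-06 and -0.77 ± 0.12, adjusted p = 0.000927) and the deubiquitinase Usp11 (-0.88 ± 0.07, adjusted p = 1.93e-07 and -0.74 ± 0.17, adjusted p = 0.00598) fell at both days. Smad2, Smad3 and Smad7, chosen after their values were seen, were at 0.35 ± 0.07 (adjusted p = 0.000544), -0.58 ± 0.07 (adjusted p = 1.27e-05) and 0.53 ± 0.10 (adjusted p = 0.000658) at day 1, and Smad3 was at 0.00 ± 0.10 (adjusted p = 0.988) at day 14. There Smad2 was at 51.9 ± 6.18 CPM in WT and 51.5 ± 3.07 in KO, and Smad7 at 23.9 ± 3.75 and 23.6 ± 0.655. Pmepa1 was at 64.9 ± 12.1 and 66.6 ± 7.75 CPM at day 14. For each of these genes the day 14 groups overlapped.

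Genes that TGF-beta is known to induce went both ways as well. Of 22 tested, 10 were higher and 10 lower at day 1 (median -0.05), and 8 were higher and 7 lower at day 14 (median 0.09). The share of the list called was 90.9% at day 1 and 68.2% at day 14, beside 60.8% and 46.4% of all genes. At day 1 the growth factor gene Ctgf rose from 12.04 ± 0.533 CPM in WT to 97.1 ± 9.50 in KO (3.02 ± 0.09, adjusted p = 2.45e-11), and Acta2, smooth muscle actin, rose as well (1.28 ± 0.06, adjusted p = 2.76e-09). Lox, which crosslinks collagen and elastin, fell from 935 ± 33.8 to 116 ± 17.7 CPM (-3.01 ± 0.09, adjusted p = 4.30e-11), and Col3a1, type III collagen, from 4338 ± 81.3 to 579 ± 37.4 CPM (-2.90 ± 0.06, adjusted p = 2.16e-12). At day 14 Lox (3.38 ± 0.30, adjusted p = 3.57e-05) and Col3a1 (2.35 ± 0.20, adjusted p = 2.72e-05) were higher in KO, and Acta2 was higher again (1.29 ± 0.14, adjusted p = 0.000114). Ctgf was lower at day 14 (-0.71 ± 0.15, adjusted p = 0.00518). Col1a1, a chain of type I collagen, was lower at both days (-1.01 ± 0.07, adjusted p = 4.24e-08 and -1.59 ± 0.24, adjusted p = 0.000672). Tgfbi, Cdkn2b, Eln and Tagln of this list were not tested.

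The activin branch, which feeds the same SMADs, had 6 of 9 tested genes higher and 2 lower at day 1 (median 0.27) and 4 higher and 3 lower at day 14 (median 0.08). So 88.9% and 77.8% of the 9 were called, where among all genes it was 60.8% and 46.4%. Inhbb, an activin subunit, rose at both days (1.06 ± 0.11, adjusted p = 3.40e-06 and 0.96 ± 0.23, adjusted p = 0.00867). Fstl3, which binds and blocks activin, rose at day 1 (1.08 ± 0.10, adjusted p = 1.16e-06) and fell at day 14 (-0.999 ± 0.16, adjusted p = 0.00116). The ligand gene Gdf11 (-0.36 ± 0.09, adjusted p = 0.00454 and 0.37 ± 0.11, adjusted p = 0.0205) and the receptor gene Acvr2a (-0.29 ± 0.07, adjusted p = 0.00228 and 0.47 ± 0.09, adjusted p = 0.00246) were lower at day 1 and higher at day 14, where the call of Gdf11 was lost without KO replicate 1 or 3 (adjusted p = 0.0747 and 0.0887). Without KO replicate 1, or without KO replicate 3, 4 of the 9 were called at day 14. Over all genes the number called there, 6918, ran from 5182 to 9209 as each library was left out. Mstn, Nodal and Acvr1c were not tested. Across the lists, the 23 genes named by rule and called at day 14 were also called, with the same sign, without WT replicate 1, and their log2 differences changed by a factor of at most 1.42 (Inhbb). As the rule took the largest called changes of these same data, that they kept call and sign is no separate check.

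**Figure D4:**
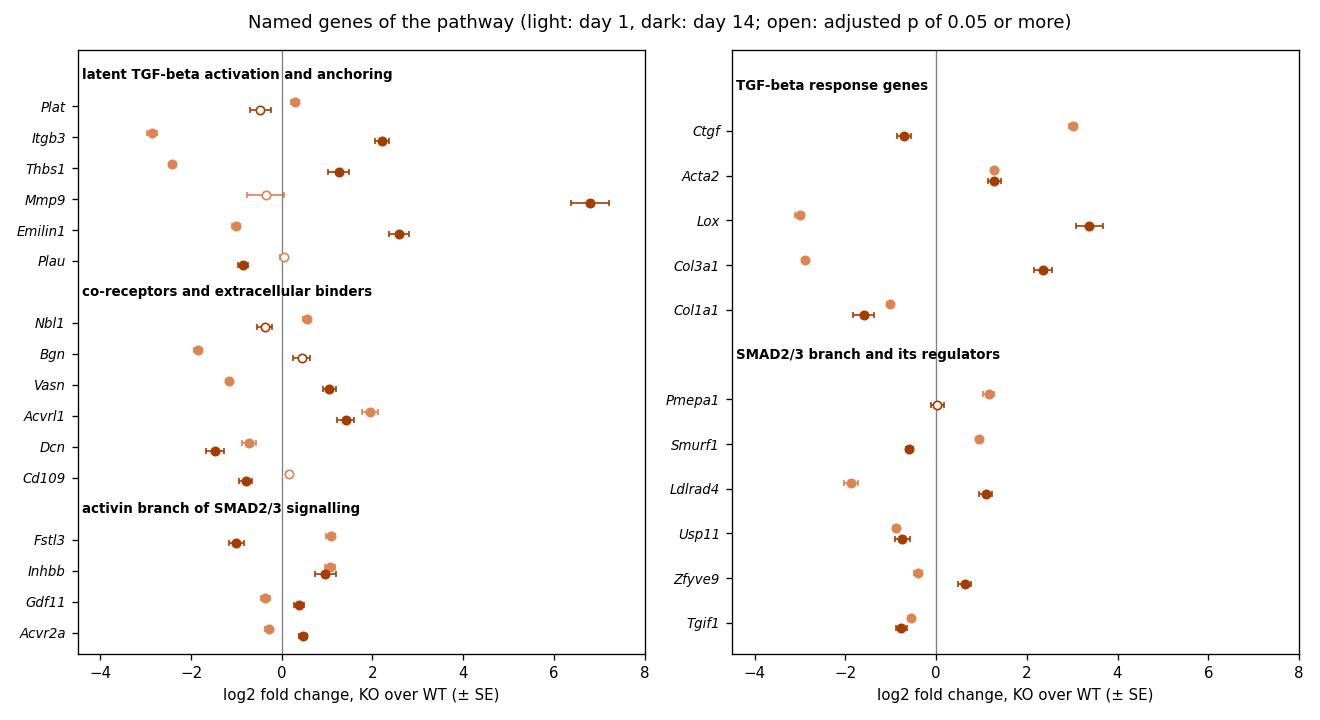
Log2 fold change of KO over WT (horizontal axis, bars ± SE, 3 against 3 libraries) for the named genes of each TGF-beta pathway list, with day 1 in light and day 14 in dark; open points have an adjusted p of 0.05 or more. Thbs1 and Itgb3 lie at -2.41 and -2.85 at day 1 and at 1.25 and 2.21 at day 14.

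Across the 12 libraries, the levels of the 10 genes followed each other to different degrees. These correlations of log2 CPM describe libraries that share groups, days and depth, and carry no test. Tgfbr2 and Tgfbr3 had r = 0.923 and Tgfbr1 and Ltbp2 r = 0.928, while Tgfb2 was negatively related to Tgfbr3 (r = -0.731) and Ltbp1 to Ltbp4 (r = -0.867). Among 9954 genes averaging a log2 CPM of 3 or more, the most alike to Tgfb2 were Arl4d (r = 0.990) and Cep85l (r = 0.980). For Tgfb1 they were Adamts2 (r = 0.966) and Mapk9 (r = 0.964). Cdip1 was among the genes most like Tgfb3 (r = 0.927). The receptor genes were nearest to BC017643 (r = 0.971) and Alkbh5 (r = 0.966) for Tgfbr1, Axl (r = 0.989) and Arhgef19 (r = 0.983) for Tgfbr2 and Cpt1a (r = 0.985) and Glul (r = 0.981) for Tgfbr3. The binders were nearest to Insig1 (r = 0.992) and Myadm (r = 0.991) for Ltbp1, Actr1b (r = 0.990) and Parva (r = 0.986) for Ltbp2, Clip2 (r = 0.984) and Tbc1d10b (r = 0.968) for Ltbp3 and Sac3d1 (r = 0.955) and Cpne2 (r = 0.955) for Ltbp4.

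Ltbp2 and Tgfb3 lie on the same chromosome with 17 tested genes between them in the RefSeq order. The genes next to Ltbp2, Isca2 and Arel1, were at -0.03 (adjusted p = 0.824) and 0.76 (adjusted p = 0.000111) in KO at day 14, where Ltbp2 was at 1.62. The genes next to Tgfb3, Ttll5 and Ift43, were at -0.17 (adjusted p = 0.0520) and -0.62 (adjusted p = 1.65e-05) at day 1, where Tgfb3 was at -0.33.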

How the data were processed

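The authors deposited raw counts of reads for each gene name, 1 table per day with 3 columns per genotype. Columns marked CTR were taken for WT, and each table gave its day. The build mm9 is named in the submitters' processing notes; aligner, counting tool, annotation and strand setting were not given in the sources used here. Per the labels' protocols, RNA was taken up in TRIzol and made into libraries with a NEBNext Ultra kit.

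After repeated lines with the same counts were dropped (43 and 53), 28451 and 30813 names remained. Tests used edgeR 4.0.16 (R 4.3.3): TMM, filterByExpr, the quasi-likelihood F test and Benjamini-Hochberg adjustment over every gene tested, with calls made under an adjusted p of 0.05. Each day's 6 libraries gave that day's contrast of KO with WT, and 1 fit of the 12 libraries over the shared names gave all other comparisons and the printed CPM. A standard error is the log2 difference divided by the root of F. Exon lengths are merged exons of GENCODE M21. Each fit was tested on simulated counts.

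The genes and the pathway and marker lists were chosen with earlier results of these data known. Per pathway list and contrast of KO with WT, up to 2 rising and 2 falling called genes were named, the largest changes among those averaging a log2 CPM of 3 or more whose groups did not overlap; exceptions are stated, and some genes that these rules take are not reported here. Alternatives were other size factors, library size alone, DESeq2 1.42.0, no filter, all 12 libraries in the fit, the replicate number as a block, and leaving out each library.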

Additional observations from a re-analysis of the deposited data

Results flagged for a closer look

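For 8 of the 10 genes the KO effect at day 14 differed from the KO effect at day 1 in the test of that difference (edgeR quasi-likelihood, fit of all 12 libraries), and these are listed here for a closer look. The log2 difference between the effects was -3.19 ± 0.32 (adjusted p = 6.33e-07) for Tgfb2 and -1.27 ± 0.17 (adjusted p = 1.17e-05) for Ltbp4, where the effect was lower at day 14. It was 1.63 ± 0.24 (adjusted p = 3.85e-05) for Ltbp2, 1.62 ± 0.17 (adjusted p = 8.34e-07) for Tgfbr3 and 1.25 ± 0.16 (adjusted p = 8.94e-06) for Ltbp1. Smaller differences were found for Tgfb1 (0.87 ± 0.18, adjusted p = 0.000673), Tgfbr2 (0.85 ± 0.16, adjusted p = 0.000333) and Tgfbr1 (0.47 ± 0.13, adjusted p = 0.00565). Of all genes tested, 60.1% were called in the same way.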

How the results depend on the processing

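The number of the 10 genes called kept within 1.5 times its value under every alternative in 6 of the 7 comparisons. As each library was left out it ran from 6 to 7 for KO against WT at day 1, 4 to 6 at day 14, 8 to 9 for the change of effect, 5 to 6 for WT and 8 to 9 for KO between the days, and 6 to 10 for KO at day 14 against WT at day 1. Over all genes the numbers called ran, in the same order, from 8163 to 9991, 5182 to 9209, 9046 to 10504, 7107 to 9068, 7612 to 10021 and 6880 to 9413. For WT at day 14 against KO at day 1 the number of the 10 genes called ran from 1 to 7, and the count over all genes, 1562, ran from 577 to 5538. Of the values of the 10 genes in single comparisons, 656 kept direction and side of the threshold as a library was left out, 35 lost a call, 11 gained one and 18 changed sign; under the other settings these numbers were 345, 4, 10 and 11. All sign changes were in values that missed the threshold.

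With library size alone as the scaling, the sign turned for Tgfbr1 in KO at day 1 (0.021), Tgfb3 and Smad3 in KO at day 14 (-0.054 and -0.065), Ltbp3 in the change of effect (-0.025), Tgfbr2 between the days of WT (0.080) and Tgfb3 between the days of KO (-0.039). That scaling moved the median of all genes by 0.12 at day 1, -0.07 at day 14 and -0.21 in the change of effect, and the share of calls that were higher from 49.0% to 42.5% at day 14. With size factors of the DESeq2 kind, Tgfb3 and Smad3 at day 14 were at -9.3e-05 and -0.0086, and Tgfb1 in WT at day 14 against KO at day 1 at 0.0044, or 0.0037 by DESeq2. Without a filter, Ltbp2 at day 1 was at -0.010, and Tgfb3 in WT at day 14 against KO at day 1 at -0.00048. The cause was not tested. Leaving out single libraries, the sign turned within -0.075 to 0.15 for Ltbp2 at day 1, -0.19 to 0.19 for Tgfb3, -0.082 to 0.22 for Ltbp1 and -0.083 to 0.038 for Smad3 at day 14, -0.069 to 0.32 for Ltbp3 in the change of effect, -0.15 to 0.11 for Tgfbr2 and -0.11 to 0.20 for Tgfb1 between the days of WT, -0.010 to 0.10 for Tgfb3 between the days of KO, and -0.17 to 0.19 for Tgfb3 and -0.19 to 0.13 for Tgfb1 in WT at day 14 against KO at day 1.

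Libraries with the same replicate number did not deviate together (correlations from -0.023 to 0.051), so the numbers were not taken to pair them. With the replicate block 6, 6 and 9 of the 10 genes were called at day 1, at day 14 and in the change of effect, and Tgfb3 in WT at day 14 against KO at day 1 was at -0.011. Over the settings that kept all libraries, the numbers called among all genes ran from 8354 to 9885, 6716 to 8320 and 9400 to 10160 in these comparisons. At the lowest count of any of the 10 genes, 211 reads, counting error alone is 6.88% of the level. The shares, sums and ratio of WT at day 14 without its replicate 1 were computed later, with the main results already known. Each moved by less than its SD. In a group of 3, dropping any library moves the mean by less than the SD, whatever the values. The size of these moves is therefore no check on stability.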
